A study of Mus musculus with 6 samples.

Results

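Glucocorticoid-induced genes and the C/EBP factors were examined in the hearts of mouse pups that express human SRY outside the testis. The list named 10 genes, and every probe of the array whose symbol matched one of them was taken. Of these genes, 8 were found, with 9 probes among the 25697 probes (18138 gene symbols) of the array: Fkbp5, Tsc22d3 (2 probes), Sgk1, Klf9, Ddit4, Mt1, Mt2 and Cebpb. The symbols Zbtb16 and Cebpd were not found, and both genes were not analysed here. The 9 probes were above background on all 6 arrays, so none was lost to the filter on dim probes.

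Total RNA of whole hearts from 3 hSRY-ON and 3 hSRY-OFF pups, all males of the FVB strain (FVB/N in the methods) at postnatal day 6, was hybridized to 1 Illumina MouseRef-8 BeadChip array each. Both group names refer to the Signalox-hSRY transgene, a single-copy insertion in which the ubiquitous CAG promoter drives DsRed2 until Cre recombinase removes this gene and places FLAG-tagged human SRY and EGFP behind the promoter. In hSRY-ON pups the recombination was brought about in the early embryo by Cre protein from the oocytes of Ddx4-Cre mothers, so that the transgene is active throughout the body and not in the heart alone, and the pups chosen did not carry Ddx4-Cre themselves. The methods define hSRY-OFF mice as carriers of the unrecombined transgene, whereas elsewhere the control littermates are described as having Ddx4-Cre only or neither transgene, so it is uncertain whether the controls carried the silent transgene. The human SRY transcript was not measured on this array.

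Glucocorticoids, of which corticosterone is the main one in the mouse, bind the glucocorticoid receptor (Nr3c1), which then enters the nucleus and activates genes through glucocorticoid response elements in the DNA. Fkbp5, Tsc22d3, Sgk1, Klf9, Ddit4 and Per1 are induced in this way in many tissues, and the hormone contributes to the maturation of the heart around birth. Several of these genes also answer to other signals: the metallothioneins Mt1 and Mt2 to zinc and other metals, Ddit4 to hypoxia and shortage of amino acids, and Cebpb to inflammatory cytokines.

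Of the 9 probes, 7 were called higher in hSRY-ON hearts and 0 lower, where a call required that the p-value from limma, adjusted by the Benjamini-Hochberg method over 12970 tested probes, be under 0.05. Among all tested probes, 13.8% were called higher and 13.7% lower, 27.5% in all. Before adjustment, 8 of the 9 probes were higher with p under 0.05, against 20.4% of all tested probes. Every hSRY-ON heart lay above every hSRY-OFF heart for 8 of the 9 probes, against 23.6% of all tested probes, and all 9 log2 fold changes (hSRY-ON minus hSRY-OFF) were above 0, against 49.6% of all tested probes. The median log2 fold change of the 9 probes was 1.25, whereas that of all tested probes was -0.00464. The 7 called genes were Fkbp5, Tsc22d3 (by 1 of its probes), Mt2, Cebpb, Ddit4, Sgk1 and Mt1. In RNA of a whole organ, a change in the number of cells that express a gene and a change in its RNA per cell cannot be told apart.

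**Figure D1:**
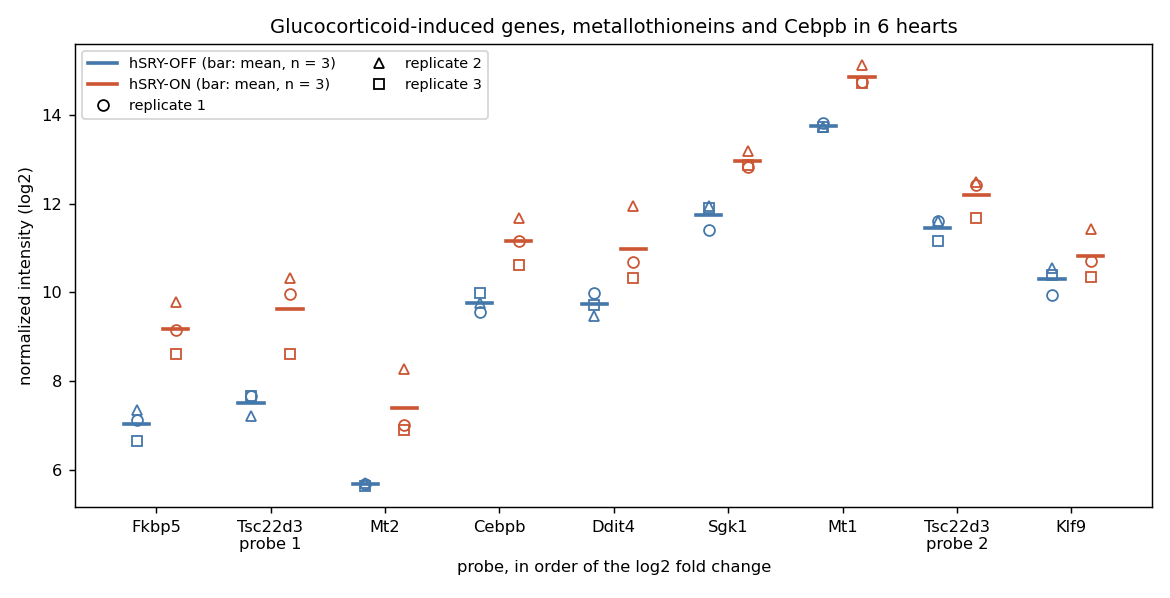
Normalized intensity (log2, vertical axis) of the 9 probes in each heart, with hSRY-OFF in blue and hSRY-ON in red, the replicate given by the symbol and the mean of 3 hearts by the bar. The groups are apart for every probe except that of Klf9, and hSRY-ON replicate 2 (triangle) is the highest heart throughout. Heights of different probes cannot be set against each other.

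Fkbp5 encodes a co-chaperone of the glucocorticoid receptor that lowers its affinity for hormone, and its fold change was, with that of the first Tsc22d3 probe below, the largest of the group. Here and below, values are given in the order of replicates 1, 2 and 3. The deposited intensity of Fkbp5 was 306, 357 and 199 in the controls and 650, 1017 and 493 in hSRY-ON hearts. After background correction and quantile normalization the log2 values were 7.11, 7.35 and 6.66 in hSRY-OFF and 9.14, 9.79 and 8.60 in hSRY-ON hearts. The lowest hSRY-ON heart, replicate 3, was still 1.26 (log2) above the highest hSRY-OFF heart. Fkbp5 rose by 2.14 on the log2 scale (standard error 0.31, adjusted p = 0.00244, limma), or 4.40-fold (95% confidence interval 2.68 to 7.22), which exceeded that of 99.1% of the tested probes. Without background correction the log2 fold change was 1.42 and remained called. With each heart left out in turn it was between 1.83 and 2.42.

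Tsc22d3 encodes the glucocorticoid-induced leucine zipper protein (GILZ), which restrains inflammatory transcription, and its 2 probes differed. The first (ILMN_2701664) had normalized log2 values of 7.65, 7.22 and 7.66 in hSRY-OFF hearts and of 9.95, 10.33 and 8.61 in hSRY-ON hearts. All hSRY-ON hearts were above all hSRY-OFF hearts, with replicate 3 nearest to them. This probe rose by 2.12 (standard error 0.41, adjusted p = 0.00793, limma), or 4.34-fold (95% confidence interval 2.25 to 8.37).

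The second Tsc22d3 probe (ILMN_3150811) read 11.60, 11.61 and 11.15 in hSRY-OFF and 12.41, 12.48 and 11.66 in hSRY-ON hearts. The hearts of the groups did not overlap, but hSRY-ON replicate 3 exceeded the highest hSRY-OFF heart by only 0.06. Its log2 fold change of 0.73 (95% confidence interval 0.17 to 1.29) missed the threshold (adjusted p = 0.0597, limma). Without hSRY-ON replicate 3 it was 0.99 and passed (adjusted p = 0.0119). Within each array, the log2 difference of the first minus the second probe was -3.95, -4.39 and -3.49 in hSRY-OFF and -2.45, -2.15 and -3.06 in hSRY-ON hearts. Its absolute size carries no meaning, since probes differ in brightness, but it was higher in all hSRY-ON hearts, by 1.39 on average. Without background correction, the log2 fold changes of the first and second probe were 1.56 and 0.70, so the size of this difference depends on the correction. The exact two-sided permutation p was 0.1, the smallest that 3 hearts against 3 allow. Which transcripts of Tsc22d3 each probe reads is not given in the sources used here.

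Sgk1 encodes a kinase that regulates ion channels and transporters and is induced by glucocorticoids, mineralocorticoids and serum. The log2 values were 11.41, 11.95 and 11.89 in hSRY-OFF hearts and 12.83, 13.18 and 12.87 in hSRY-ON hearts. The hSRY-ON hearts lay close together, and the groups were separated by 0.89. Sgk1 rose by 1.21 (standard error 0.18, adjusted p = 0.00274, limma), or 2.32-fold (95% confidence interval 1.73 to 3.11), and stayed between 1.04 and 1.31 with any heart left out.

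The DNA before the annotated transcription starts of the 8 genes was searched for the consensus of the glucocorticoid response element, because these genes moved together. The letters searched were AGAACA and TGTTCT with any 3 bases between them, on both strands, in the 250 bases before each start (RefSeq, GRCm38.p6). Of 15 such windows of the 8 genes, 1 held it, before a start of Sgk1, against 3 of 32851 windows of all genes (0.00913%). It lies 189 to 175 bases before that start and is shown in capitals in the sequence of chr10:21993640-21993889, on the plus strand.
Sgk1: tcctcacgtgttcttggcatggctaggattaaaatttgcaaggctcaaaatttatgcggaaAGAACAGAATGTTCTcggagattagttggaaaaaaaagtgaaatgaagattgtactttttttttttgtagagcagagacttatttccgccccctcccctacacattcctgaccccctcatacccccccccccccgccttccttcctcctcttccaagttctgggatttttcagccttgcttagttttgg
The shorter core, ACANNNTGT, which lies within the full element, was found in 3 of the 15 windows, before starts of Sgk1 and Mt1, and in 5.84% of all windows. The C/EBP element, TTGCNNCAA, was found in 1 of the 15 windows, before a start of Sgk1, and in 1.74% of all windows. A match of letters describes the sequence and not a site of binding, and elements outside these windows were not searched.

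Klf9 encodes a zinc finger transcription factor that binds GC-rich promoters. Its log2 values were 9.93, 10.55 and 10.38 in hSRY-OFF hearts and 10.70, 11.44 and 10.35 in hSRY-ON hearts. The groups overlapped, since hSRY-ON replicate 3 was below 2 of the hSRY-OFF hearts. The log2 fold change of 0.54 had a 95% confidence interval of -0.13 to 1.21 and was not called (adjusted p = 0.203, limma), nor was it under any of the 17 alternatives tried. It was 0.24 without hSRY-ON replicate 2 and 0.78 without hSRY-ON replicate 3.

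Ddit4 encodes REDD1, an inhibitor of the growth-promoting kinase complex mTORC1. The deposited intensity was 1318, 1027 and 744 in hSRY-OFF and 1652, 4037 and 1342 in hSRY-ON hearts, which gave log2 values of 9.99, 9.47 and 9.72 and of 10.68, 11.94 and 10.31. A single heart, hSRY-ON replicate 2, stood 1.44 above the mean of the other hSRY-ON hearts, whereas hSRY-ON replicate 3 exceeded the highest hSRY-OFF heart by 0.32. Ddit4 rose by 1.25 (standard error 0.39), or 2.38-fold (95% confidence interval 1.28 to 4.45), with an adjusted p of 0.0475 (limma) that was close to the threshold. The call was lost without hSRY-OFF replicate 1, 2 or 3 (adjusted p = 0.0788, 0.127 and 0.0922, limma) and without hSRY-ON replicate 1 (0.0716). Without hSRY-ON replicate 2 the log2 fold change fell to 0.77, with a smaller standard error of 0.20, and was called (adjusted p = 0.0382).

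The metallothioneins bind zinc and copper and buffer their free concentration in the cell. Mt1 had log2 values of 13.82, 13.72 and 13.72 in hSRY-OFF hearts and of 14.74, 15.12 and 14.73 in hSRY-ON hearts. Its SD in hSRY-OFF hearts, 0.06 (n = 3), was the smallest of the genes after that of Mt2, which was near background there. The lowest hSRY-ON heart was 0.91 above the highest control. Mt1 rose by 1.11 (standard error 0.14, adjusted p = 0.00159, limma), or 2.16-fold (95% confidence interval 1.72 to 2.72), and had the smallest p-value of the 9 probes.

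Mt2 was dim in the controls. Its deposited intensity was 202, 217 and 163 in hSRY-OFF hearts, with detection p-values of 0.0150, 0.0113 and 0.0388, and 249, 440 and 240 in hSRY-ON hearts. The log2 values were 5.69, 5.71 and 5.63 in hSRY-OFF and 7.0, 8.27 and 6.88 in hSRY-ON hearts, with hSRY-ON replicate 2 again far above the others. Mt2 rose by 1.71 (standard error 0.34, adjusted p = 0.0091, limma), or 3.28-fold (95% confidence interval 1.89 to 5.67). Without background correction the log2 fold change was 0.73, and it was still called, so its direction was kept while its size rests on the correction.

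Metal response elements, TGCACNC or TGCGCNC on either strand, are the sites of the zinc sensor MTF1, and they were looked for in the same windows. They were found in 3 of the 15 windows of the 8 genes, before a start of Mt1, of Mt2 and of Ddit4. This is close to the share of the windows of all genes, 21.4%. The sequences of both metallothioneins are shown because the zinc sensor is a well-known regulator of these genes, with the elements in capitals. They are chr8:94178839-94179088 for Mt1 and chr8:94172368-94172617 for Mt2, on the plus strand of GRCm38.p6 (RefSeq).
Mt1: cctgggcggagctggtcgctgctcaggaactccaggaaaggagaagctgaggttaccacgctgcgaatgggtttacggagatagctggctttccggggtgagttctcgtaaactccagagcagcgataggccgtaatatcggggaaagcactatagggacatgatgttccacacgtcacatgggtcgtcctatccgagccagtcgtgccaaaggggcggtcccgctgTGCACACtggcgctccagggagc
Mt2: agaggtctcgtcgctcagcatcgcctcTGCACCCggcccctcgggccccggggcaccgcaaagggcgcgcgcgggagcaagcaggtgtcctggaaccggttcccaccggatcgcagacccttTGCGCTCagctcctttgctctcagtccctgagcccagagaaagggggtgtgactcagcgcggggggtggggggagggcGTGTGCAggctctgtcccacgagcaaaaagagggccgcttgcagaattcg
Mt1 holds 1 such element, 23 to 17 bases before its start, and Mt2 holds 3, of which that at 50 to 44 bases before the start is on the minus strand. The core ACANNNTGT of the glucocorticoid response element matched the Mt1 sequence at 92 to 84 bases before the start.

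Cebpb encodes a basic leucine zipper factor that activates acute phase, fat cell and metabolic genes. Its log2 values were 9.55, 9.75 and 9.97 in hSRY-OFF hearts and 11.16, 11.68 and 10.61 in hSRY-ON hearts. The groups were apart by 0.64, with hSRY-ON replicate 2 the highest and replicate 3 the lowest of their group. Cebpb rose by 1.39 (standard error 0.26, adjusted p = 0.00722, limma), or 2.62-fold (95% confidence interval 1.72 to 4.0), and was between 1.13 and 1.66 with each heart left out.

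Other members of the C/EBP family were not called. Cebpa, which drives the differentiation of fat and liver cells, differed by 0.24 on the log2 scale (standard error 0.16, adjusted p = 0.297, limma). Cebpg was at 0.03 (standard error 0.26), and Ddit3, the stress-induced member CHOP, at 0.11 (standard error 0.16). Cebpa and Cebpg were dim. Cebpa was above background on 3 hSRY-ON and 2 hSRY-OFF arrays, and Cebpg on 1 and 2. A change in these genes could therefore have been missed. All probes of Cebpe and Cebpz were above background on no array.

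The hSRY-ON hearts differed more among themselves for these genes than for most others. The median SD over the 3 hSRY-ON hearts was 0.56 (log2) for the 9 probes and 0.17 for all tested probes, whereas over the 3 hSRY-OFF hearts the medians were 0.26 and 0.17. The SD of Tsc22d3 (first probe), Ddit4 and Mt2 exceeded that of 99.5%, 99.4% and 99.2% of all tested probes, while those of Sgk1 and Mt1 exceeded 55.7% and 64.4%. The order of the hearts was shared: hSRY-ON replicate 2 was the highest of the 6 hearts for all 9 probes, in the deposited intensities as well as after normalization.

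Over all tested probes, hSRY-ON replicate 2 was the highest of its group for 35.4%, and over the probes called higher in hSRY-ON for 43.3%. Replicate 3 was the lowest of the group for 8 of the 9 probes, the exception being Sgk1, where replicate 1 was slightly lower. Both orders held together for 8 of the 9 probes, for 18.2% of all tested probes and for 26.7% of those called higher. The probes share these 6 arrays, so these shares describe them and carry no test. The excess of replicate 2 over the mean of the other hSRY-ON hearts was 1.44 for Ddit4, 1.33 for Mt2, 1.05 for the first probe of Tsc22d3, 0.91 for Fkbp5 and for Klf9, and 0.79 for Cebpb, but 0.39 for Mt1 and 0.33 for Sgk1. Without this heart, 7 of the 9 probes were still called higher, against 9.96% of all tested probes in the same fit.

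**Figure D2:**
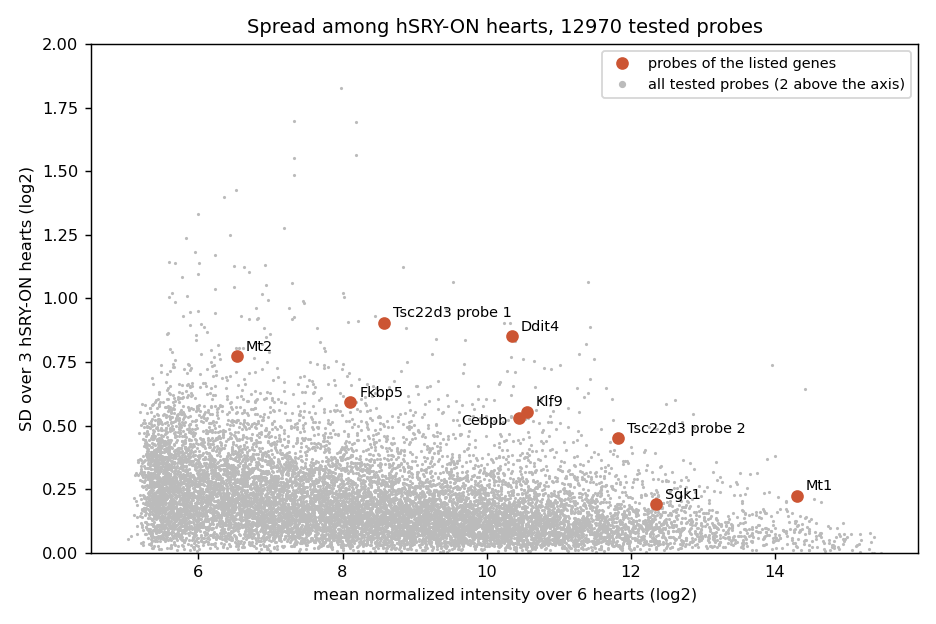
SD over the 3 hSRY-ON hearts (log2, vertical axis) against the mean normalized intensity over all 6 hearts (log2, horizontal axis), for the 9 probes in red and all tested probes in grey, of which 2 lie above the axis. The highest SDs of the red points are those of Tsc22d3 (first probe), at 0.90, and Ddit4, at 0.85. The lowest SDs are those of Sgk1 and Mt1, at 0.19 and 0.22.

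**Figure D3:**
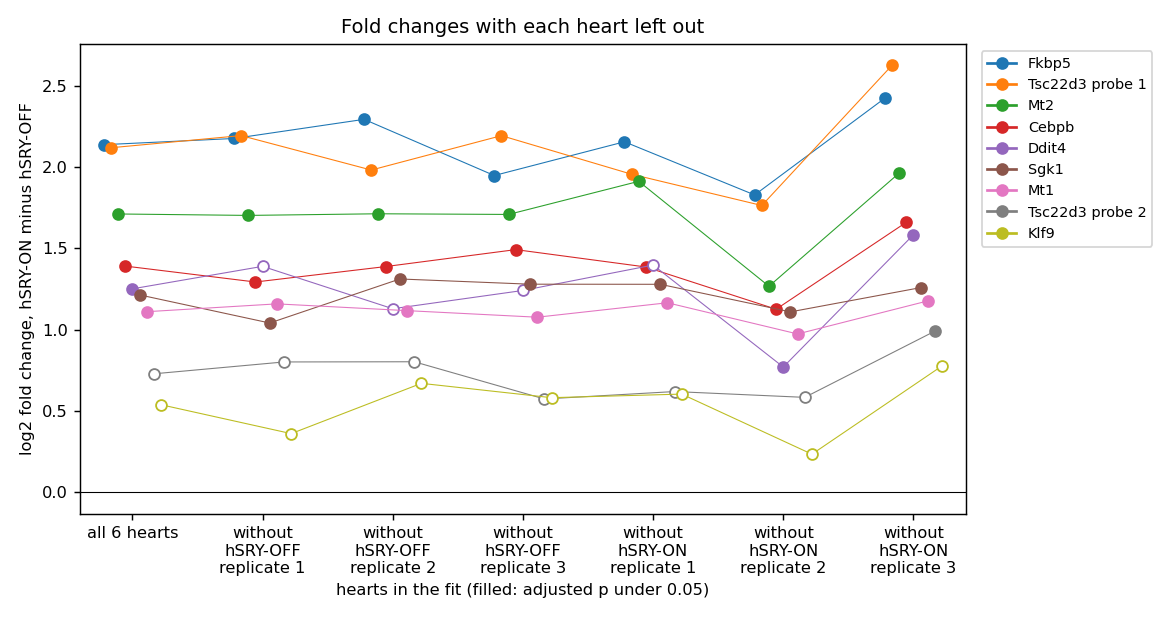
Log2 fold change (vertical axis, hSRY-ON minus hSRY-OFF) of the 9 probes with all hearts and with each of the 6 left out (horizontal axis). Filled points passed an adjusted p of 0.05 in limma, and points are shifted sideways for sight. All values are above 0, and the lowest value of Ddit4, 0.77, was reached without hSRY-ON replicate 2.

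Of the genes of hormone supply, Hsd11b1, the enzyme that regenerates active glucocorticoid from its inert 11-keto form inside cells, had log2 values of 6.07, 6.10 and 6.71 in hSRY-OFF and 9.47, 9.44 and 8.40 in hSRY-ON hearts. The hearts of the groups did not overlap, and replicate 3 was the lowest of the hSRY-ON hearts here too, but replicate 2 did not stand above replicate 1. Hsd11b1 rose by 2.81 (standard error 0.31, adjusted p = 0.000953, limma), and without background correction by 1.68. Its other probes rose by 3.06 and 2.71.

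H6pd, which supplies the cofactor of that enzyme, was at 0.25 (standard error 0.15) and was not called. Fkbp4, the co-chaperone that replaces Fkbp5 in the receptor complex when hormone binds and favours transport to the nucleus, fell by 1.0 (standard error 0.14, adjusted p = 0.00216, limma). The probes of the glucocorticoid receptor Nr3c1 and of the hormone-inactivating Hsd11b2 were above background on no array, so their levels were not measured, and the mineralocorticoid receptor Nr3c2 was not found among the symbols. Of 10 tested genes for receptor chaperones, cofactors and hormone supply, taken by the brightest probe, 1 was called higher and 1 lower, against 14.9% and 13.9% of all 9660 tested genes.

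A further list of 30 genes known to be induced by glucocorticoids in various tissues gave a mixed picture. Of 25 tested, 8 (32.0%) were called higher and 3 (12.0%) lower, with a median log2 fold change of 0.28, beside the 14.9%, 13.9% and a median of 0.00 (0.00257) over all tested genes. Among the called genes, Lcn2 and Hif3a passed the probe filter through the hSRY-ON hearts alone, and Rgs2 through the hSRY-OFF hearts alone. The filter thus favoured their calls. With replicate 1 or 2 of either group left out, 4 genes of the list were called higher in each case. In those fits 8.56% to 9.96% of all tested probes were called higher, against 13.8% with all hearts.

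Lcn2, an iron-binding protein of the innate defence, rose at least 3.77-fold (adjusted p = 0.000494, limma). Its probe was above background on no hSRY-OFF array, so this is the mean of the hSRY-ON hearts over the lowest detectable signal, for the background-corrected intensities only. The circadian regulator Per1 read 8.02, 8.83 and 8.88 in hSRY-OFF and 9.79, 10.49 and 9.97 in hSRY-ON hearts and rose by 1.51 (standard error 0.27, adjusted p = 0.00636, limma). The groups did not overlap, and hSRY-ON replicate 2 was again the highest. Per1 was picked for description after its values were known, as were the other named genes of the comparison lists apart from the largest change in each direction, the receptors and the hormone enzymes.

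Mertk, a receptor for the clearance of dead cells, rose by 1.18 (standard error 0.14), and by 0.66 without background correction. Nfkbia, the inhibitor of NF-kappa B, Cdkn1c and Cdkn1a, inhibitors of the cell cycle, and the lipase inhibitor Angptl4 rose by 0.84, 0.65, 0.68 and 0.67. The other probes of Cdkn1a, at 0.83 and 0.45, were not called, and without normalization between arrays Nfkbia, Cdkn1c, Cdkn1a and Angptl4 lost their calls (adjusted p = 0.0824, 0.272, 0.217 and 0.216, limma). Their log2 fold changes were then 0.74, 0.53, 0.58 and 0.58. That fit gave each of the 9 probes of the listed genes the same standard error, 0.30. How far the losses came from this error and not from the missing normalization was not tested. With hearts left out, Nfkbia lost its call without hSRY-OFF replicate 1 or 2 (adjusted p = 0.0653 and 0.0784, limma), and Cdkn1a did so without replicate 1 or 2 of the controls (0.0619 and 0.0802) or of the hSRY-ON hearts (0.0775 and 0.0652). Angptl4 lost it with any heart except hSRY-ON replicate 3 left out (0.0569 to 0.112). Hif3a rose at least 1.22-fold from a background level in all hSRY-OFF hearts, and lost its call without hSRY-OFF replicate 1 or 2 (0.0539 and 0.0572).

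Among the genes that went the other way, Trim63, which encodes the muscle ubiquitin ligase MuRF1, read 10.49, 10.50 and 10.56 in hSRY-OFF and 8.29, 9.03 and 8.85 in hSRY-ON hearts. All hSRY-ON hearts were below all controls, and Trim63 fell by 1.79 (standard error 0.19, adjusted p = 0.000815, limma). Pdk4, an inhibitor of pyruvate oxidation, fell by 1.32 (standard error 0.23, adjusted p = 0.0055, limma). Rgs2, a regulator of G protein signalling, was above background on no hSRY-ON array and was, after background correction, at least 1.37-fold lower (adjusted p = 0.0105, limma). Without background correction the difference was -0.23 on the log2 scale and was not called (adjusted p = 0.0572). Genes that were not called included the phosphatase Dusp1, at -0.17 (standard error 0.24), and Fbxo32, the other muscle ubiquitin ligase of the list, at 0.57 (standard error 0.28). Within this list hSRY-ON replicate 2 was the highest of its group for 18 of 25 genes (72.0%), against 35.4% of all tested probes. Both orders of replicates 2 and 3 held for 13 (52.0%), against 18.2% of all tested probes.

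**Figure D4:**
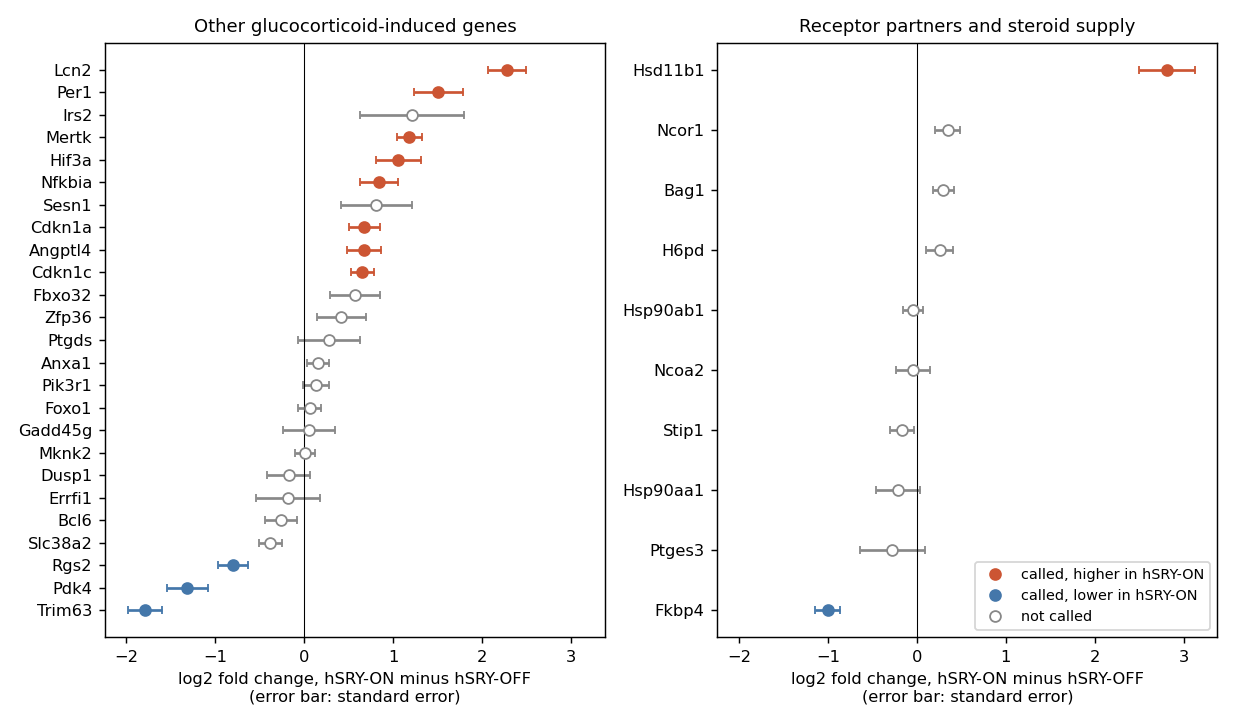
Log2 fold change (hSRY-ON minus hSRY-OFF, horizontal axis) with its standard error for the tested genes of the glucocorticoid-induced list (left) and of the receptor and hormone supply list (right), by the brightest probe of each. Filled points passed an adjusted p of 0.05 in limma, red for higher and blue for lower. Per1 at 1.51 and Hsd11b1 at 2.81 lie to the right, and Trim63 at -1.79 and Fkbp4 at -1.0 to the left. The points of Lcn2, Hif3a and Rgs2 are fitted values of genes at background in a whole group, for which only the bounds given in the text hold.

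Genes of the other signals that act on some of the same genes were counted in the same way. Of 12 tested genes of metal handling, 4 (33.3%) were called higher and 1 (8.33%) lower, beside 14.9% and 13.9% of all tested genes. Mt3, a metallothionein that is not strongly induced by metals, read 10.31, 10.11 and 10.39 in hSRY-OFF and 11.52, 11.96 and 11.39 in hSRY-ON hearts, again with replicate 2 the highest, and rose by 1.35 (standard error 0.17, adjusted p = 0.00159, limma). Slc30a1, the zinc exporter that MTF1 controls, was at 0.28 (standard error 0.16) and was not called. Tfrc, the transferrin receptor for iron uptake, fell by 1.42 (standard error 0.28, adjusted p = 0.00833, limma).

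Of 14 tested genes of the acute phase and of interleukin-6 signalling, 4 (28.6%) were called higher and 0 lower, beside 14.9% and 13.9% of all tested genes, and the median log2 change was 0.59, beside 0.00257 over all tested genes. Serpina3n, a secreted protease inhibitor, rose by 3.81 (standard error 0.39, adjusted p = 0.000719, limma), from 8.42, 8.43 and 8.42 in hSRY-OFF to 12.23, 13.13 and 11.33 in hSRY-ON hearts. It had the same order as the glucocorticoid-induced genes, with replicate 2 the highest and replicate 3 the lowest of the hSRY-ON hearts. Stat3 and Socs3, the transcription factor and the feedback inhibitor of interleukin-6 signalling, were at 0.58 (standard error 0.24) and 0.52 (standard error 0.22) and were not called.

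Of 18 tested genes of amino acid shortage and mTORC1 control, 3 (16.7%) were called higher and 2 (11.1%) lower, close to the shares of all tested genes (14.9% and 13.9%). The serine synthesis enzyme Psat1 rose by 1.27 (standard error 0.13, adjusted p = 0.000716, limma), while Ddit4l, the paralog of Ddit4, fell by 1.17 (standard error 0.18, adjusted p = 0.00308, limma) and by 0.45 without background correction. Phgdh, of the same list, rose by 0.94 (standard error 0.20, adjusted p = 0.0120, limma), and by 0.43 without background correction. Trib3, Asns and Chac1, also of this list, were not called, at -0.02, 0.16 and 0.01. Of 14 tested hypoxia-induced genes, 3 (21.4%) were called higher and 1 (7.14%) lower, against 14.9% and 13.9% of all tested genes. The glucose transporter Slc2a1 rose by 1.27 (standard error 0.28, adjusted p = 0.0129, limma), and Vegfa, the vascular growth factor, fell by 1.24 (standard error 0.25, adjusted p = 0.00969, limma) by its brightest probe, while its other probe was at -0.44 (standard error 0.18) and was not called (adjusted p = 0.113).

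Of 13 tested paralogs of the listed genes, each taken by its brightest probe, 2 (15.4%) were called higher and 2 (15.4%) lower, close to the 14.9% and 13.9% of all tested genes. Klf13 rose by 1.09 (standard error 0.31, adjusted p = 0.0343, limma), but lost its call without replicate 1 or 2 of the controls (0.0964 and 0.0839) or of the hSRY-ON hearts (0.0719 and 0.092). Tsc22d4 fell by 0.98 (standard error 0.14, adjusted p = 0.0025, limma), opposite to Tsc22d3. The dimmer probes of some paralogs gave other results. That of Tsc22d1 rose by 1.60 (adjusted p = 0.00176, limma), but was above background on 3 hSRY-ON arrays and only 1 hSRY-OFF array. The hSRY-ON hearts were thus enough for it to pass the probe filter. The brightest Tsc22d1 probe was at 0.41 and was not called. Of the dimmer probes of Sgk3, 2 rose, by 0.83 and 0.71, and 1 fell by 1.53, while its brightest was at 0.67 and was not called (adjusted p = 0.051, limma).

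The probes whose log2 values over the 6 hearts were most like those of Mt1, the gene with the smallest p-value, were of Myrip, Man2a1, Larp6, Rogdi and Tmem41a. Their Pearson correlations with Mt1 were 0.9998, 0.997, 0.997, 0.997 and 0.996. Such values are frequent with 6 hearts in 2 separate groups, and 633 probes correlated above 0.95.

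Markers of the cell types that a heart sample may hold were set beside these results. Over all tested genes, 14.9% were called higher and 13.9% lower. The summed intensity (background-corrected and normalized, linear scale) of 13 tested cardiomyocyte genes was 234484 to 252238 in hSRY-ON and 251169 to 266312 in hSRY-OFF hearts, with 1 called higher and 5 lower, and each of them was above background on all 6 arrays except Ryr2, on 5. Of 7 tested leukocyte markers 3 were called higher, and the sum of the tested ones was 5850 to 7594 in hSRY-ON and 2544 to 3583 in hSRY-OFF hearts. Both probes of the defining marker Ptprc and the probes of Cd3e and Itgam were above background on no array, and Cd79a was not tested either. Of 4 tested liver markers 3 were called higher, with sums of 2729 to 4952 and 731 to 907. Among these, Ttr was at background in the hSRY-OFF hearts and passed the probe filter through the hSRY-ON hearts alone. The filter thus favoured its call and its part in the sums. Of the untested ones albumin was above background on no array, Apoa1 on 2 hSRY-ON arrays and Apoa2 on 1 hSRY-ON array, and both on 0 hSRY-OFF arrays.

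Of the other lists, 2 of 4 tested smooth muscle markers were called higher, and 1 of 8 fibroblast markers (12.5%), close to the 14.9% of all tested genes. Of 9 endothelial markers 3 were called higher and 3 lower, and 1 of 5 erythroid and 4 of 5 skeletal muscle markers were called lower. The sums of the smooth muscle markers were 39365 to 43237 in hSRY-ON and 26547 to 32249 in hSRY-OFF hearts. Those of the skeletal muscle markers were 8125 to 10832 and 19576 to 21936. Of 4 tested adipocyte markers 2 were called higher, with overlapping sums of 1037 to 3592 and 1803 to 2575, and Fabp4, Plin, Elovl3 and Lep were not tested. In hSRY-ON replicate 2, where the glucocorticoid-induced genes were highest, the sum of the adipocyte markers was the lowest of the 6 hearts (1037). The sums of the leukocyte and liver markers in that heart, 5908 and 4246, lay within the range of the hSRY-ON hearts. The sum of the endothelial markers there was the highest of the 6 hearts (26360, against at most 23013 in hSRY-OFF hearts). That of the skeletal muscle markers was the highest of the hSRY-ON hearts (10832), and that of the smooth muscle markers the lowest (39365). Those of the cardiomyocyte, fibroblast and erythroid markers were at neither end of the hSRY-ON range. The part of other cell types in the changes of the glucocorticoid-induced genes was not tested.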

How the data were processed

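The authors hybridized biotin-labelled cRNA of each heart to 1 array and deposited un-normalized bead intensity values with a detection p-value for each probe, taken against the negative-control beads of the array. The paper names TCC and the submitters' processing notes name limma, in both cases without settings. Between 47.2% and 51.3% of probes were detected on an array, and the number of arrays limits the precision.

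With limma 3.58.1 in R 4.3.3, neqc (offset of 16) corrected the background, quantile normalized the arrays and took log2. Probes with a detection p-value under 0.05 on at least 3 of the 6 arrays were compared between the groups by limma's lmFit and eBayes without covariates, two-sided, with Benjamini-Hochberg adjustment across the 12970 of them. Figures were made with Python 3.11.15 and matplotlib 3.10.9. The listed genes and the comparison lists were chosen with earlier results of these data known, and no list was tested as a set. The named genes were every probe of the listed genes, the largest called increase and decrease of each comparison list, 4 receptor and hormone enzyme genes, and the 5 probes most similar to the leading gene; others were named after their values were seen. The alternatives covered background correction, scaling, probe filters, variance model, array weights, a replicate block and each heart left out. In simulated data, 159 of 200 changed probes were recovered (79.5%) with 12 false calls among 12996 tested probes. The planted changes were all larger than those of Klf9 and the second Tsc22d3 probe, and lay only in probes brighter than that of Mt2. Noise was independent for each probe, and far fewer probes were changed than were called in the data. The recovery of smaller changes and dimmer probes was therefore not measured.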

Additional observations from a re-analysis of the deposited data

How the results depend on the processing

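All 9 probes of the glucocorticoid-induced genes and Cebpb had log2 fold changes above 0 under all 17 alternatives. Fkbp5, the first Tsc22d3 probe, Mt1, Mt2, Cebpb and Sgk1 were called under all 17, Ddit4 under 11, the second Tsc22d3 probe under 9 and Klf9 under 0. Without a probe filter Ddit4 was lost (adjusted p = 0.0893, limma). The second Tsc22d3 probe passed without background correction (adjusted p = 0.0291), with an offset of 50 (0.0293), with both scalings (0.0381 and 0.0358), with detection on all 6 arrays (0.0489), with an intensity trend (0.0173) and with array weights (0.0397). The number of the 9 probes called was 6 to 8 with each heart left out. Over all tested probes it was 2206 to 3669 in that case, 1081 to 1821 of them higher and 1061 to 1848 lower in hSRY-ON, with the lowest total without hSRY-OFF replicate 1. Without normalization between arrays 1897 probes were called, 731 higher and 1166 lower, so that 38.5% of calls were higher, against 50.1% with quantile normalization and 65.7% with scaling to the median of the detected probes. Over all tested probes the median change (log2) was then -0.12. The cause was not tested.

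Replicate numbers were not treated as pairs, since the deviations of same-numbered hearts from their group means correlated at -0.02, 0.04 and -0.07. Such values show no shared signal but cannot exclude a shared litter, on which the labels are silent. With the replicate number as a block, 7 of the 9 probes were called, Ddit4 being lost (adjusted p = 0.0783, limma) and the second Tsc22d3 probe gained (0.0215), and 2842 of all tested probes were called. Dim probes such as that of Mt2 depend most on the background correction.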
